A study of Sus scrofa domesticus and Sus scrofa with 18 samples.

Results

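The spleens of fetal and newborn Rongchang pigs, a Chinese domestic breed, were compared by strand-specific RNA sequencing of whole tissue. The comparison took 6 of the 18 libraries of a study of spleen development. They were the 3 libraries from female fetuses at E55d, which lay 55 days before birth, and the 3 libraries from female piglets at B0d, just after birth. The 12 other libraries came from pigs weaned for 30 days (W30d), pigs of 180 days (A180d) and 2 years (A2Y) and Wild Boars (WB) of 2 years, with 3 animals each. No animal was treated or genetically modified. Each library came from a different animal of the same breed and sex, so stage was the difference named by the labels, while litter and sampling day were not given and cannot be told apart from stage. Tables of 12913 protein-coding genes and 15040 long noncoding RNAs (lncRNAs, transcripts without a recognised protein product) gave an FPKM for each library, that is, mapped fragments scaled to transcript length and to the total of mapped fragments. Changes are given as the difference between the mean log2(FPKM + 1) at B0d and at E55d, which understates the change of a transcript near 0. A change is called a rise or a fall where limma, fitted to all 18 libraries, gave an adjusted p of at most 0.05.

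The spleen forms in the mesenchyme beside the stomach, and transcription factors such as TLX1 and NKX2-3 are needed for it to form. In the fetus it is a site of blood cell formation, with many immature red cells. Its red pulp later holds macrophages that take up old red cells and recycle their iron, and its white pulp gathers T cells and B cells around small arteries, drawn by chemokines made by stromal cells. The capsule and the trabeculae of the pig spleen contain smooth muscle. In whole tissue, fewer cells of a type and less RNA per cell cannot be told apart, so every level below is a level in the tissue.

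Markers of the labelled tissue were present at both stages. TLX1 had an FPKM of 14.3, 11.1 and 15.8 at E55d and 15.3, 18.4 and 18.2 at B0d. NKX2-3 had an FPKM of 7.95, 7.78 and 6.66 at E55d and 8.74, 12.5 and 8.03 at B0d. The values of TLX1 overlapped between the stages and those of NKX2-3 did not, and neither they nor WT1, a mesothelial and stromal transcription factor that completes the list, passed the test (limma adjusted p from 0.211 to 0.814 over TLX1, NKX2-3 and WT1). None of the 7 pancreas genes on the list of other organs could be matched to an identifier.

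The E55d libraries resembled each other more than the B0d libraries did. Pearson correlations across protein-coding genes, which are not independent replicates, were 0.985 to 0.986 among the E55d libraries and 0.936 to 0.976 among the B0d libraries. B0d replicate 3 stood apart: 379 genes lay more than 1 log2 unit above both other B0d libraries and 216 lay more than 1 below, against 28 and 48 genes for replicate 1 and 46 and 34 for replicate 2. Plasma protein genes typical of liver were among them. ALB, which encodes serum albumin, had an FPKM of 530.1 in B0d replicate 3, 0.0939 and 0.369 in replicates 1 and 2, and 1.31, 0.368 and 0.788 at E55d. TF, which encodes transferrin, had an FPKM of 171 in B0d replicate 3, 0.594 and 0.570 in the other newborn libraries, and 9.57, 3.01 and 6.33 at E55d. The summed FPKM of 7 such plasma protein genes, a list made after the values were seen, was 932 in the highest B0d library and 51.8 in the lowest, against 20.2 to 30.7 at E55d. Their part in the results below was not tested, and the list counts below that change without this library are given with and without it. APOA1, which encodes an apolipoprotein and was 1 of the 2 measured liver markers, was higher in all 3 B0d libraries (49.8, 49.2 and 154) than at E55d (18.9, 16.3 and 21.3). In B0d replicates 1 and 2 the sum of the 7 plasma protein genes was 52.4 and 51.8, and APOA1 made up nearly all of it. Outside B0d replicate 3 the higher newborn sum thus came from APOA1, and TF was lower than at E55d.

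Of the 12913 protein-coding genes tested, 2886 (22.3%) rose from E55d to B0d and 1621 (12.6%) fell, so that 34.9% were called. In 52.7% of all genes the 3 B0d libraries did not overlap the 3 E55d libraries, and this held for 97.6% of the rises and 97.1% of the falls. A rise exceeded 1 log2 unit in 1053 genes and a fall did so in 442 genes. The balance depended on the scaling of the libraries. The median change of all genes was 0.13 as deposited and 0.01 after each library was divided by its median ratio of protein-coding genes, and the share of rises among the calls was 64.0% as deposited and 49.2% after that scaling, with 2364 rises and 2444 falls. A change should therefore be read against the median of 0.13. That scaling called 37.2% of genes (18.3% as rises and 18.9% as falls). Without B0d replicate 3, 30.6% were called (19.5% as rises and 11.1% as falls), a model of the 6 libraries alone called 35% (22.6% and 12.4%), and the same model without B0d replicate 3 called 44.7% (28.3% and 16.4%). Among genes with a mean FPKM of 10 to 100, 30.8% rose and 8.501% fell, while among those below 1 the shares were 11.3% and 11.2%. Across the stages, the median log2(FPKM + 1) of the 2886 rising genes went from 2.18 at E55d to 3.17 at B0d and lay between 3.31 and 3.52 in the 4 older groups. The median of the 1621 falling genes went from 2.46 to 1.59 and lay between 1.31 and 1.49 in the older groups.

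**Figure D1:**
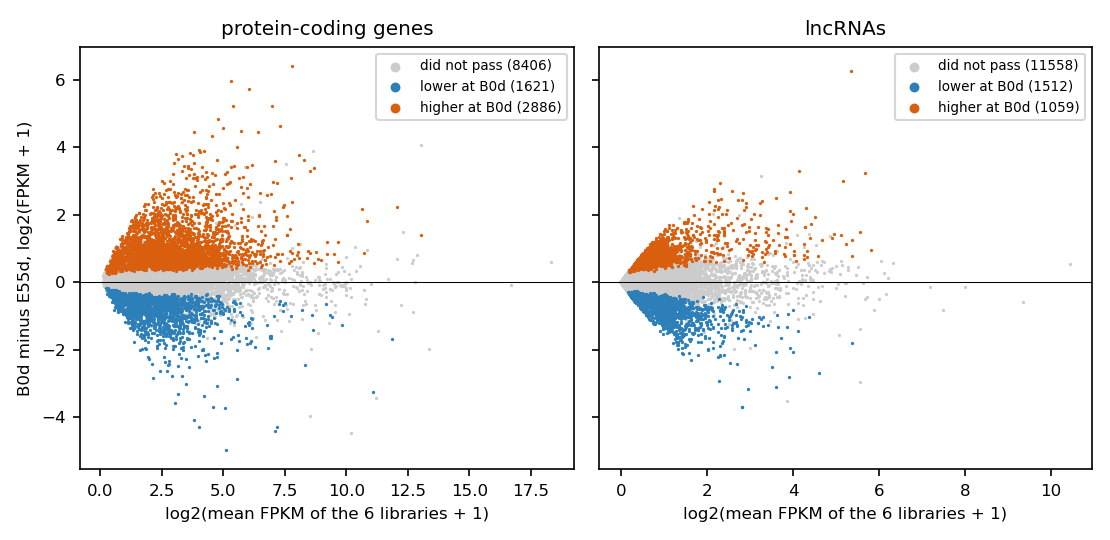
Change from E55d to B0d (vertical, difference of mean log2(FPKM + 1)) against the log2 of the mean FPKM of the 6 libraries plus 1 (horizontal), for protein-coding genes (left) and lncRNAs (right). Each point is a transcript; orange marks rises, blue marks falls and grey marks those that did not pass. Rises outnumbered falls among protein-coding genes (2886 against 1621) and falls outnumbered rises among lncRNAs (1512 against 1059).

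Symbols were available for 8215 of the 12913 genes, of which 35.1% were called, and gene lists cover those members alone. The counts of each list are to be read against the 22.3% of all genes that rose and the 12.6% that fell. All measured macrophage and monocyte genes passed the test. Of 9 members, 8 rose and 1 fell, with a median change of 2.11 against 0.13 over all genes, and the counts were the same without B0d replicate 3 and after the scaling above. The summed FPKM of the list was 196 to 213 at E55d and 1354 to 1576 at B0d.

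MARCO, a scavenger receptor of splenic macrophages, had an FPKM of 4.02, 7.22 and 5.203 at E55d and 159.8, 350.1 and 229 at B0d, a rise of 5.21 ± 0.44 (SE, limma adjusted p = 3.59e-07). SPIC, a transcription factor required for red pulp macrophages, had values of 10.7, 10.6 and 8.96 in the fetus and 108, 83.2 and 202 in the newborn, a rise of 3.47 ± 0.25 (limma adjusted p = 7.81e-08). C1QA, a chain of the first complement component made by macrophages, went from 64.6, 72.6 and 75.4 to 819.6, 809.8 and 645, a rise of 3.40 ± 0.21 (limma adjusted p = 2.23e-08). For these genes every newborn library stood far above every fetal library, and B0d replicate 3 was the highest for SPIC and the lowest for C1QA. CD14, a coreceptor for bacterial lipopolysaccharide, had an FPKM of 3.25, 2.52 and 4.07 at E55d and 17.5, 22.2 and 25.4 at B0d and rose by 2.41 ± 0.32 (limma adjusted p = 3.83e-05). CSF1R, the receptor for the growth factor of macrophages, also rose (2.12 to 3.48 against 9.91 to 14.6; limma adjusted p = 0.0171), and the adjusted p was 0.0631 without the second E55d library and 0.0543 without B0d replicate 1. The exception was MRC1, the macrophage mannose receptor, with 6.11, 4.82 and 6.43 at E55d and 1.26, 3.05 and 2.42 at B0d. It fell by 1.10 on the log2 scale (SE 0.30, limma adjusted p = 0.00983), and without B0d replicate 1 the adjusted p was 0.0505.

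Several families of lysosomal and immune genes were inspected after their values were seen, and their counts are a description. Which cells carried these transcripts was not tested. Among all genes, 22.3% rose and 12.6% fell. Of 10 cathepsins, the lysosomal proteases, 8 rose and none fell (7 without B0d replicate 3). CTSH went from 24.3, 23.4 and 22.1 to 155, 174 and 129, and CTSS, which trims the invariant chain of MHC class II, from 70.8, 71.8 and 72.2 to 363, 428 and 333. Neither gene showed overlap between the stages. Of 8 Toll-like receptors, 4 rose and none fell (5 without B0d replicate 3). TLR4, the receptor for lipopolysaccharide, had an FPKM of 4.23, 3.96 and 4.28 at E55d and 40.6, 31.7 and 36.8 at B0d. TLR2, which binds bacterial lipoproteins, was at 2.08 in each E55d library and at 10.5, 10.6 and 19.498 at B0d. All 3 measured subunits of the beta-2 integrins of leukocytes rose, although ITGAL, the alpha chain of LFA-1, did not pass without the second E55d library (adjusted p = 0.0696) or without B0d replicate 3 (0.0832). The common chain ITGB2 went from 7.398, 6.04 and 7.27 to 49.1, 46.4 and 45.5. Of 11 complement genes, 7 rose and none fell. The terminal component C7 rose from 45.7, 42.5 and 39.5 to 409, 544 and 223, and CFD, the protease factor D of the alternative pathway, from 14.8, 14.4 and 16.5 to 129.5, 113 and 119. The 4 complement genes that did not pass included CFB, factor B, which was at 18.6 in B0d replicate 3 and at 0.697 and 0.663 in the other newborn libraries.

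**Figure D2:**
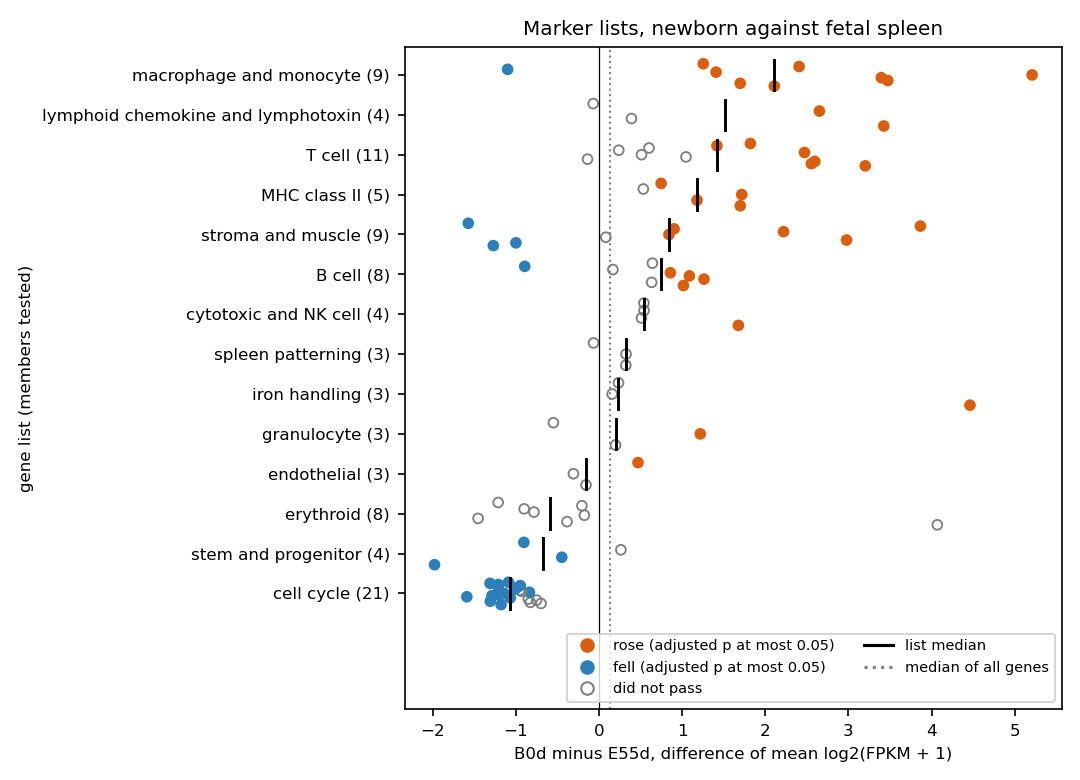
Change from E55d to B0d (horizontal, difference of mean log2(FPKM + 1)) of each measured member of the marker lists with 3 or more members (vertical, number of members in parentheses). Filled points rose (orange) or fell (blue), open points did not pass, black bars are list medians and the dotted line is the median of all genes. Macrophage genes sat furthest to the right with a median of 2.11 and cell cycle genes furthest to the left with a median of -1.07.

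T cell genes were low at E55d and higher at B0d. Of 11 measured members, 6 rose and none fell, with a median change of 1.42, and the B0d libraries lay above the E55d libraries for 10 members against 33.7% of all genes. CD3D, a chain of the T cell receptor complex, had an FPKM of 0.381, 0.505 and 0.542 at E55d and 10.6, 10.17 and 18.3 at B0d, a rise of 3.20 ± 0.31 (limma adjusted p = 1.5e-06). CD2, an adhesion molecule of T and NK cells, had values of 0.655, 0.777 and 0.586 and then 9.72, 6.39 and 12.02, a rise of 2.60 ± 0.30 (limma adjusted p = 9.04e-06). CD247, the zeta chain of the receptor complex, and LCK, the kinase that starts signalling from it, rose by 2.56 ± 0.28 and 2.47 ± 0.31. In each of these genes the lowest newborn library was above the highest fetal library by several times. CD8A, the coreceptor of cytotoxic T cells, did not pass, at 0.0285, 0.117 and 0.184 against 1.202, 0.780 and 2.05 (adjusted p = 0.0808), and in a model of the 6 libraries alone it did (limma adjusted p = 0.00559). CD4 was below 1 in all 6 libraries. In that model, which estimates the spread from these libraries alone, 10 of the 11 members rose.

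B cell genes did not all change in the same direction. Of 8 measured members, 4 rose and 1 fell, with a median change of 0.75. MS4A1, which encodes the B cell surface protein CD20, had an FPKM of 4.63, 3.55 and 4.23 at E55d and 13.4, 7.93 and 13.4 at B0d, a rise of 1.26 ± 0.19 (limma adjusted p = 0.000117). BLNK, an adapter of B cell receptor signalling, went from 1.55, 1.44 and 1.38 to 4.45, 4.68 and 3.58. EBF1, a transcription factor of early B cells that stromal cells also express, moved the other way, from 1.93, 1.303 and 2.21 to 0.474, 0.434 and 0.599, a fall of 0.89 on the log2 scale (SE 0.15, limma adjusted p = 0.000221). B cell transcripts were therefore already measurable in the fetal spleen, and the newborn libraries did not overlap them for 7 of the 8 members, against 52.7% of all genes. Without B0d replicate 3 there were 5 rises and 1 fall.

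Of 5 measured MHC class II genes, which present antigen to helper T cells, 4 rose and none fell, with a median change of 1.18. Among all genes, 22.3% rose. SLA-DMB, which loads peptides on class II molecules, had an FPKM of 8.75, 7.52 and 7.33 at E55d and 38.8, 32.3 and 17.5 at B0d. SLA-DQB1, a chain of a presenting molecule, had 8.77, 7.35 and 8.24 and then 23.8, 32.8 and 29.9. CIITA, the master activator of class II genes, passed with a change of 0.75 (adjusted p = 0.0263), and without B0d replicate 3, its highest library at 4.05, the adjusted p was 0.138. It was 0.0968 and 0.0562 without the second and the third E55d library and 0.0528 in the model of the 6 libraries. Scaling each library to its protein-coding total without the most abundant gene gave 0.0676. Below, results of this scaling are given as those without the most abundant gene. Genes of the MHC are close paralogs, so their reads may be split between copies.

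Of 4 cytotoxic and NK cell genes, NKG7, a membrane protein of cytotoxic granules, rose from 1.85, 1.38 and 1.19 to 6.77, 7.19 and 6.64 (limma adjusted p = 0.00071). PRF1, GZMA and GNLY, which encode killing proteins of the granules, had an FPKM of at most 1.14 in all 6 libraries and did not pass, with adjusted p from 0.202 to 0.524. They passed in the model of the 6 libraries, where their values did not overlap.

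Of 4 measured genes of lymphoid chemokine and lymphotoxin signalling, 2 rose and none fell. CCL19, a chemokine of the T cell zone, had an FPKM of 8.08, 10.05 and 7.92 at E55d and 74.2, 77.5 and 187 at B0d, a rise of 3.43 ± 0.31 (limma adjusted p = 6.01e-07). Its receptor CCR7, which guides T cells and dendritic cells, went from 0.313, 0.200 and 0.296 to 7.49, 5.34 and 8.41, a rise of 2.65 ± 0.24 (limma adjusted p = 7.54e-07). Ligand and receptor were thus both higher in every newborn library. CXCR5, the receptor that guides B cells to follicles, was at 0.469 to 0.547 and then 0.770 to 1.16 and did not pass (adjusted p = 0.0713). It passed in the 6-library model (0.0267, and 0.0282 without B0d replicate 3) and with a pseudocount of 0.1 (0.0152). LTA, which encodes lymphotoxin alpha, was at most 0.309 in the 6 libraries.

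**Figure D3:**
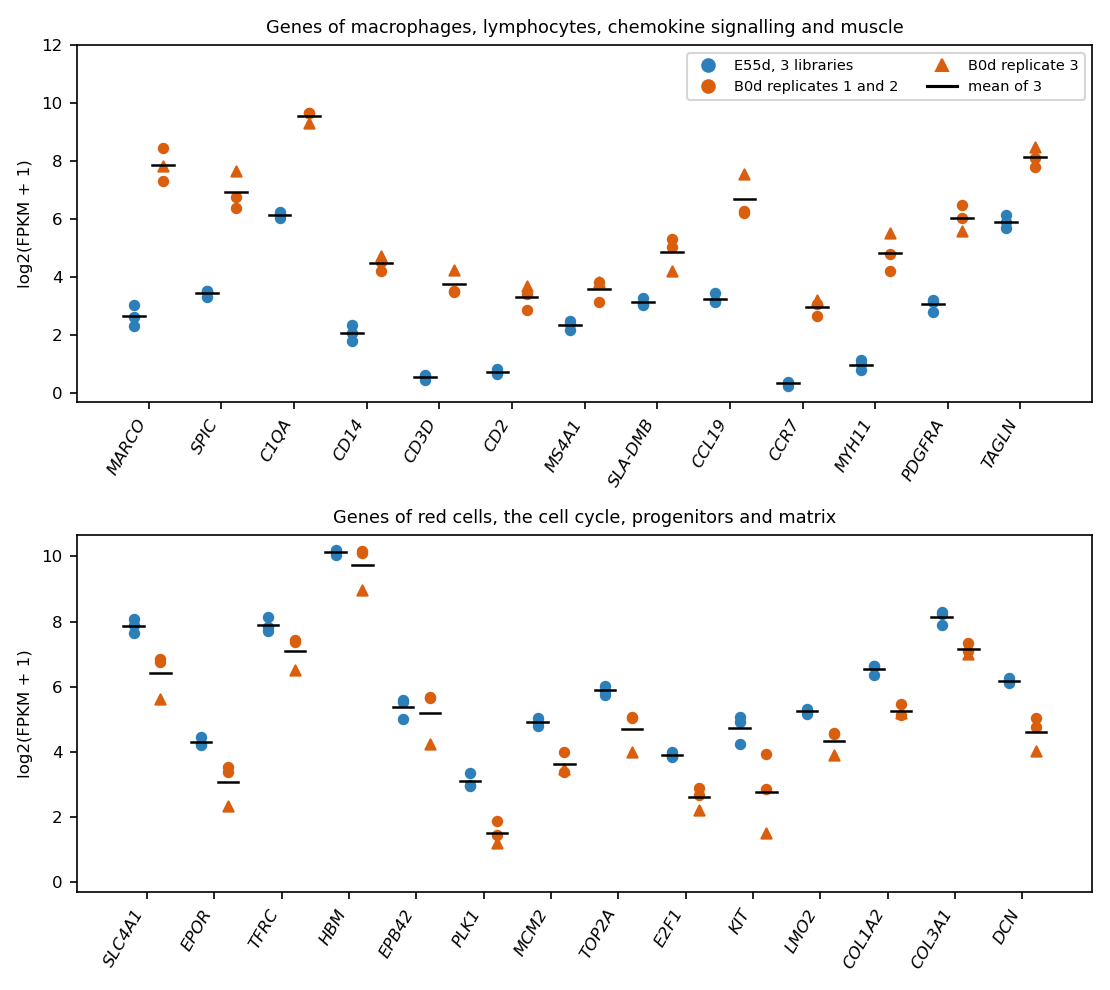
Levels of marker genes in the 6 libraries (vertical, log2(FPKM + 1); horizontal, gene). Blue points are the 3 E55d libraries, orange circles B0d replicates 1 and 2, orange triangles B0d replicate 3, and bars the mean of 3. The upper panel shows chosen genes that rose, so all B0d points lie above the E55d points of the same gene. MRC1 and EBF1, which fell, are not shown. In the lower panel HBM and EPB42 overlap between the stages, and B0d replicate 3 is the lowest newborn library for SLC4A1, EPOR, TFRC, HBM and EPB42.

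Several red cell genes were high at both stages, and none of the 8 measured members passed the test, with a median change of -0.58. The newborn libraries lay below the fetal libraries for 4 members, against 18.9% of all genes, and above them for none. HBM, an alpha-like globin of immature red cells, had an FPKM of 1170, 1141 and 1046 at E55d and 1146, 1094 and 499.5 at B0d, with overlap between the stages. SLC4A1, the anion exchanger band 3 of the red cell membrane, was at 267, 238 and 197 in the fetus and 107, 114 and 48.7 in the newborn, a difference of -1.46 ± 1.13 (limma adjusted p = 0.331). EPOR, the erythropoietin receptor, was at 20.8, 17.4 and 17.98 and then 10.7, 9.40 and 4.02, a difference of -1.21 ± 0.53 (limma adjusted p = 0.0831). TFRC, the transferrin receptor through which red cell precursors take up iron, was at 278, 227 and 208 and then 164, 172 and 90.7 (adjusted p = 0.384). The fetal and newborn values of SLC4A1, EPOR and TFRC did not overlap, and B0d replicate 3 was the lowest in each.

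The large standard errors of these genes go with the W30d libraries, where SLC4A1 ranged from 0.815 to 189 and TFRC from 18.4 to 326. With only the 6 libraries in the model, SLC4A1 (adjusted p = 0.0126) and EPOR (0.0193) fell and the other 6 members still did not pass. The same 2 counts, 0 rises and 2 falls, were obtained when B0d replicate 3 was also left out. HBB, an adult beta globin, was listed at 0 in the second E55d library and at 11271 and 11717 in the first and the third, and at 9383, 11978 and 5556 at B0d, so no change is given for it. Globin genes are near-identical copies and their counts are uncertain.

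Heme synthesis, the pathway that supplies hemoglobin, was added after its values were seen. Of 7 measured enzymes, FECH and CPOX fell and none rose, which is 28.6% called against 35.1% of all genes with a symbol. The 6-library model gave 3 falls, with UROS as the third. FECH, which inserts iron in the last step, had an FPKM of 208, 178 and 145 at E55d and 55.7, 61.1 and 26.6 at B0d (limma adjusted p = 0.0247). CPOX, an enzyme upstream of it, had 118, 98.9 and 94.0 and then 31.4, 41.4 and 18.7 (limma adjusted p = 0.0312). Both enzymes were lower in each newborn library than in any fetal library, but neither call held when single libraries were left out. For FECH the adjusted p was 0.0743, 0.0613 and 0.097 without the first E55d library, the second E55d library and B0d replicate 3. For CPOX it was 0.0627 to 0.0856 without an E55d library, 0.0556 without B0d replicate 1 and 0.109 without B0d replicate 3.

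**Figure D4:**
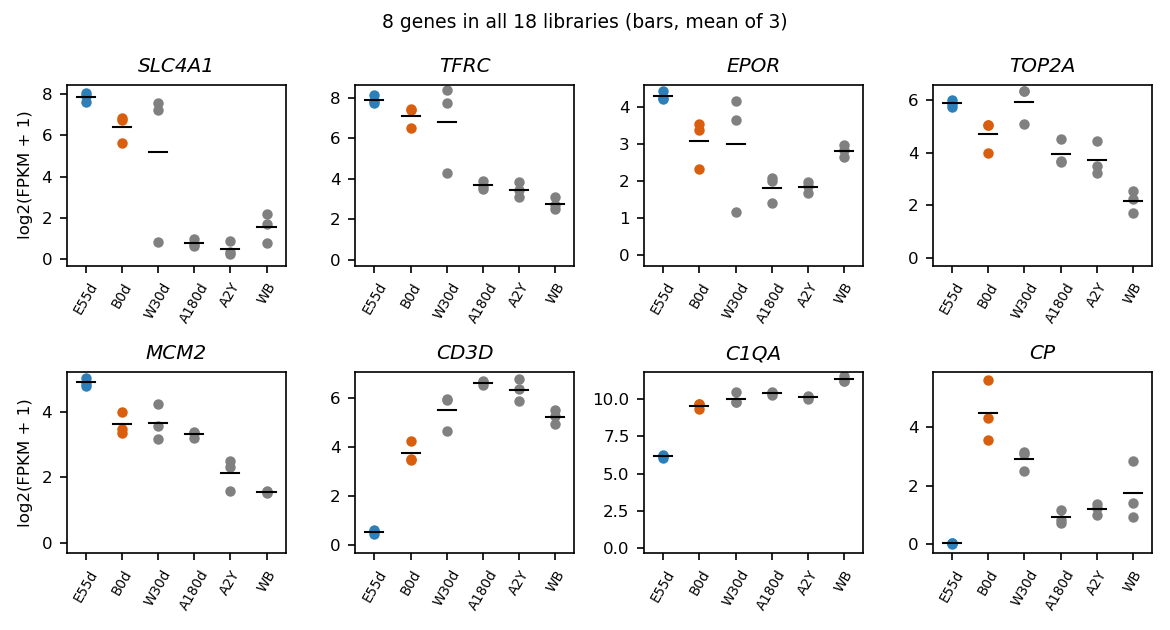
Levels of 8 genes in all 18 libraries (vertical, log2(FPKM + 1); horizontal, stage or group). Points are libraries, with E55d blue, B0d orange and the other groups grey, and bars are means of 3. SLC4A1, TFRC and EPOR differ widely among the 3 W30d libraries, CD3D and C1QA are lowest at E55d, and CP is highest at B0d.

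Cell cycle genes were lower at birth. Of 21 measured members, 15 fell and none rose, with a median change of -1.07, and the newborn libraries lay below the fetal libraries for 20 members against 18.9% of all genes. PLK1, a kinase of mitosis, had an FPKM of 9.30, 6.96 and 6.80 at E55d and 2.67, 1.76 and 1.32 at B0d and fell by 1.59 on the log2 scale (SE 0.19, limma adjusted p = 1.2e-05). MCM2, a subunit of the replicative helicase, had 32.1, 26.5 and 28.5 and then 9.31, 15.005 and 10.196 and fell by 1.29 (SE 0.26, limma adjusted p = 0.00116). E2F1, a transcription factor for entry into S phase, went from 15.1, 13.4 and 13.7 to 5.41, 6.43 and 3.68, and the mitotic cyclin CCNB2 from 15.6, 13.8 and 14.5 to 6.99, 6.05 and 3.46. These genes were lower in all 3 newborn libraries. TOP2A, a topoisomerase of dividing cells, had 64.1, 58.0 and 52.8 and then 32.2, 32.7 and 14.9 (limma adjusted p = 0.0293, 0.0547 to 0.0833 without an E55d library and 0.136 without B0d replicate 3). Without B0d replicate 3 the count was 9 falls of 21, and in the 6-library model without it 20 falls of 21. The summed FPKM of the list was 407 to 522 at E55d and 137 to 279 at B0d.

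Genes of blood stem and progenitor cells fell in 3 of 4 measured members, against 12.6% of all genes. Without B0d replicate 3 there were 2 falls and 1 rise. KIT, the receptor for stem cell factor, had an FPKM of 29.5, 17.8 and 32.7 at E55d and 6.32, 14.1 and 1.85 at B0d and fell by 1.98 on the log2 scale (SE 0.40, limma adjusted p = 0.00125). LMO2, a transcription cofactor of blood formation, had 39.2, 34.8 and 37.3 and then 22.4, 22.9 and 14.0 (limma adjusted p = 0.0336, 0.0644 to 0.0875 without an E55d library and 0.133 without B0d replicate 3). GATA2, a transcription factor of stem cells and mast cells, was low at both stages, at 1.06, 0.765 and 1.17 and then 0.449, 0.360 and 0.574, and fell by 0.45 (SE 0.10, limma adjusted p = 0.00264). The newborn libraries were below the fetal libraries for KIT, LMO2 and GATA2. The other member, MECOM, a transcription factor of blood stem cells, had 3.88, 3.602 and 3.33 in the fetus and 4.52, 5.50 and 3.68 in the newborn and did not pass (adjusted p = 0.135). It passed as a rise without B0d replicate 3 (0.0404) and in the 6-library model without it (0.0486). Of the 2 measured genes of fetal growth, the imprinted gene PEG3 fell from 3.69, 3.53 and 3.596 to 0.509, 1.31 and 0.487 (limma adjusted p = 1.5e-06), and MEST, another imprinted gene, did not pass at 1.49 to 1.61 and then 0.532 to 1.05 (adjusted p = 0.0967). MEST passed as a fall in the 6-library model (0.0422, and 0.0421 without B0d replicate 3), after the median ratio scaling (0.0448) and without the most abundant gene (0.0353).

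The stromal list divided by kind. Of 9 measured members, 5 rose and 3 fell. Genes of contractile cells were among those that rose. MYH11, the myosin of smooth muscle, had an FPKM of 1.00, 1.21 and 0.759 at E55d and 27.2, 17.7 and 44.8 at B0d, a rise of 3.87 ± 0.29 (limma adjusted p = 1.22e-07). TAGLN, an actin-binding protein of smooth muscle, had 59.9, 50.8 and 69.5 and then 222, 279 and 359.6, a rise of 2.22 ± 0.23 (limma adjusted p = 2.62e-06). PDGFRA, a growth factor receptor of mesenchymal cells, rose from 7.94, 6.08 and 8.31 to 64.6, 89.1 and 47.8. B0d replicate 3 was the highest library for MYH11 and TAGLN and the lowest newborn library for PDGFRA. ACTA2 and DES, an actin and an intermediate filament of muscle, also passed (adjusted p of 0.0191 and 0.022), and without B0d replicate 3 they did not (0.0953 and 0.117), so that 3 rises were left. ACTA2 also missed without the first E55d library (0.0538), after the median ratio scaling (0.0571) and without the most abundant gene (0.0895). DES also missed without the second (0.0547) or the third E55d library (0.0705). In the 6-library model it was at 0.0542, and without the most abundant gene at 0.0811.

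Matrix genes made up the falls. DCN, the small proteoglycan decorin, had an FPKM of 76.5, 71.1 and 67.6 at E55d and 26.2, 31.7 and 15.4 at B0d and fell by 1.57 on the log2 scale (SE 0.39, limma adjusted p = 0.00517). COL1A2, a chain of type I collagen, went from 97.9, 80.3 and 98.2 to 33.9, 43.5 and 35.5, and COL3A1, the chain of type III collagen, from 311, 238 and 300.4 to 135, 159 and 128. Over all 20 measured collagen chains, a list made after the values were seen, 10 fell and 5 rose (9 and 5 without B0d replicate 3). Among all genes, 12.6% fell and 22.3% rose. COL5A1, a chain of a collagen that starts fibrils, fell from 16.3, 11.6 and 16.6 to 2.44, 2.55 and 6.22. COL5A3 rose from 1.89, 1.65 and 1.89 to 3.98, 8.38 and 6.30, and the basement membrane chain COL4A3 from 0.106, 0.178 and 0.102 to 1.72, 2.46 and 0.552. Chains of the same collagen family thus moved in opposite directions. All 3 measured lysyl oxidases, enzymes that cross-link collagen and elastin, fell, and LOXL1 was at 4.22, 4.26 and 5.26 in the fetus and at 0.498, 0.446 and 0.390 in the newborn. Of 3 endothelial genes, the angiopoietin receptor TEK rose by 0.47 (adjusted p = 0.033), which did not hold after the median ratio scaling (0.107) or without any single library other than B0d replicate 3 (0.0691 to 0.108). After the scaling KDR, a receptor for vascular endothelial growth factor, passed as a fall instead (0.0372, against 0.177 as deposited).

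Iron handling and granulocyte genes were few. CP, which encodes the plasma ferroxidase ceruloplasmin, had an FPKM of 0.0120, 0.0321 and 0.0239 at E55d and 18.9, 47.8 and 10.8 at B0d, a rise of 4.46 ± 0.44 (limma adjusted p = 1.87e-06). The newborn libraries were the 3 highest of the 18, since W30d reached 7.81 and WB reached 6.23. FTL, the light chain of the iron store ferritin, was at 976 to 1071 and then 1085 to 1299 and did not pass. TF did not pass over all 3 newborn libraries (difference 0.16, limma adjusted p = 0.932), and without B0d replicate 3 it was lower at B0d, with a difference of -2.10 (adjusted p = 0.00516). Of 3 granulocyte genes, CSF3R, the receptor for the growth factor of neutrophils, rose from 0.252, 0.181 and 0.270 to 1.03, 2.51 and 2.32 (limma adjusted p = 0.0201, and 0.0565, 0.0688 and 0.0612 without the second E55d library, B0d replicate 2 and B0d replicate 3). S100A8, a neutrophil and monocyte protein, was at 58.7 to 60.2 in the fetus and at 23.6, 71.5 and 187 in the newborn and did not pass. F5, coagulation factor V and the only measured gene of the platelet list, had overlapping values.

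Among genes with a symbol and without overlap between the stages, the largest rise was that of MSC, which encodes musculin, a repressive transcription factor. Its FPKM was 0.149, 0.230 and 0.233 at E55d and 109, 53.2 and 68.7 at B0d, a rise of 5.95 ± 0.37 (limma adjusted p = 2.49e-08). MARCO, CP and MYH11, described above, were also among the 10 largest. ACTG2, the gamma actin of smooth muscle, went from 1.31, 1.21 and 1.29 to 30.6, 23.1 and 48.5. KLF9, a transcription factor induced by glucocorticoid and thyroid hormones, went from 0.597, 0.729 and 0.601 to 26.1, 20.03 and 20.5 (limma adjusted p = 5.31e-06). For both genes the fetal values were close to each other and far below the newborn values. MSMB, a small secreted protein, had 38.8, 32.0 and 29.5 and then 392, 826 and 314. COCH, a secreted matrix protein, had 0.239, 0.308 and 0.339 and then 22.4, 12.8 and 11.99. The last of the 10 were SRGN, the proteoglycan of leukocyte granules, and TYROBP, the signalling adapter DAP12 of myeloid and NK cells. SRGN went from 49.6, 49.9 and 38.6 to 493, 585 and 663, and TYROBP from 16.1, 19.97 and 26.1 to 232, 265 and 269.9, a rise of 3.58 ± 0.20 (limma adjusted p = 9.88e-09).

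Among genes with a symbol and without overlap between the stages, the largest fall was that of RAVER2, which encodes an RNA-binding protein. Its FPKM was 25.3, 28.7 and 23.5 at E55d and 0.671, 0.466 and 0.550 at B0d, a fall of 4.10 on the log2 scale (SE 0.14, limma adjusted p = 1.57e-11), and it was at most 0.63 in the older libraries. LY75, the endocytic receptor DEC-205 of dendritic cells, had 21.97, 19.6 and 14.7 and then 1.26, 1.75 and 1.21. CRABP1, which binds retinoic acid in the cell, had 7.75, 9.33 and 7.84 and then 0.791, 0.144 and 0.637. Matrix genes appeared here too. The proteoglycan FMOD went from 22.4, 19.9 and 17.2 to 2.66, 2.43 and 2.70, the matrix glycoprotein FBLN1 from 11.7, 9.84 and 10.4 to 0.953, 1.32 and 1.25, and the basement membrane proteoglycan AGRN from 17.3, 13.7 and 14.4 to 2.75, 1.81 and 2.77. In these genes the 3 newborn values were close together. MAST2, a microtubule-associated kinase, fell by 2.496 (SE 0.17) and ANKH, a transporter that controls mineralisation, by 2.27 (SE 0.34). AZU1, a protein of neutrophil granules made in their precursors, went from 6.36, 4.36 and 5.24 to 0.247, 0.556 and 0.239. POLR1H, a subunit of RNA polymerase I, was less even, at 10.24, 8.30 and 9.70 in the fetus and at 0, 6.98 and 0.113 in the newborn, and it did not pass in the 6-library model without B0d replicate 3 (adjusted p = 0.0558).

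Of the 13 genes encoded by mitochondrial DNA, inspected after their values were seen, 8 fell and none rose (9 falls without B0d replicate 3). Among all genes, 12.6% fell. ND5, a subunit of respiratory complex I, had an FPKM of 211, 194 and 141 at E55d and 51.9, 46.1 and 74.6 at B0d (limma adjusted p = 1.85e-05). COX1, a subunit of complex IV, was at 2207, 1980 and 2014 and then 2090, 1901 and 1975, with a difference of -0.06 ± 0.26. Genes of this genome thus did not all change by the same ratio. Some of them overlap each other and have copies in the nuclear genome, so their values are uncertain.

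Fewer lncRNAs than protein-coding genes were called. Of 14129 lncRNAs tested, 1059 (7.50%) rose and 1512 (10.7%) fell, 18.2% in all, and 29.1% did not overlap between the stages. With B0d above, 14.2% did not overlap, and with B0d below, 14.9%. Falls made up 58.8% of the calls, 68.7% after the median ratio scaling of protein-coding genes and 50.2% with a pseudocount of 0.1. Without B0d replicate 2 the balance turned, with 1441 rises and 1278 falls. The scaling called 20% of lncRNAs (6.26% as rises and 13.7% as falls). Without B0d replicate 3, 16.8% were called (7.13% and 9.63%), the 6 libraries alone gave 12.5% (5.66% and 6.88%) and the 6 without B0d replicate 3 gave 11.8% (5.38% and 6.4%). Most lncRNAs were low: 10053 of those tested had a mean FPKM below 1 over the 6 libraries, and 13.9% of them were called against 28.7% between 1 and 10. The median log2(FPKM + 1) of the falling lncRNAs went from 1.27 at E55d to 0.48 at B0d and lay between 0.09 and 0.32 in the older groups. That of the rising lncRNAs went from 0.42 to 1.26 and lay between 0.35 and 0.84 in the older groups.

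The number of lncRNAs with any signal did not separate the stages. It was 12133, 12461 and 12350 at E55d and 12646, 12629 and 12284 at B0d, and the mean difference of 205 was within the spread between libraries (two-sided exact permutation test, p = 0.3, where 3 against 3 libraries cannot go below 0.1). Above an FPKM of 1 the libraries held 3560, 4349 and 4413 lncRNAs at E55d and 5006, 2910 and 4270 at B0d, with a difference of -45.3 (exact permutation p = 0.9). B0d replicate 2 had the fewest and B0d replicate 1 the most. The most abundant lncRNAs were the same 5 at both stages, and none of them passed the test. TU47080, the highest, had an FPKM of 1167, 1036 and 1156 at E55d and 1605, 1448 and 1886 at B0d, without overlap (limma adjusted p = 0.0641, and 0.0267 in the 6-library model). TU69026 had 904, 705 and 748 and then 500.4, 629 and 451 (limma adjusted p = 0.142, and 0.0471 in that model). The other three were TU80113, TU18965 and TU81514, with a mean of 267, 226 and 153 at E55d and of 243, 130.3 and 138 at B0d. TU18965 had no overlap and passed as a fall in the 6-library model (0.0394, and 0.00886 without B0d replicate 3). TU47080 and TU69026 also passed in that model without B0d replicate 3 (0.00342 and 0.0237), and TU69026 passed after the median ratio scaling (0.0439). The lncRNA names are those of the assembly, and neighbouring or overlapping transcripts may share reads.

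TU81265 had the largest rise of a lncRNA, of 6.25 ± 1.49 (limma adjusted p = 0.00613). Its FPKM was 0.141, 0 and 0 at E55d and 96.5, 71.7 and 70.6 at B0d. Among the older libraries it was not uniform, with a range of 0 to 92.4 at W30d and of 0.101 to 136 in WB, while A180d and A2Y reached at most 0.233. TU26355 rose from 2.06, 1.72 and 2.29 to 23.0, 20.1 and 49.8, TU5867 from 4.40, 8.31 and 16.2 to 72.6, 113 and 86.7, and TU78696 from 4.68, 5.95 and 9.55 to 63.1, 35.1 and 90.5. These stayed above their fetal level in the mean of each older group. TU8312 and TU13459 had another course. TU8312 was at 0.0848, 0.0887 and 0.108 in the fetus and at 10.18, 9.11 and 4.06 in the newborn, and its mean was at most 0.032 in each older group. TU13459 was at 0.0435, 0.168 and 0.200 and then 9.46, 7.65 and 3.34. At W30d it ranged from 0 to 4.72 with a mean of 1.57, and its mean was at most 0.00246 later. The other 4 of the 10 largest rises, taken from lncRNAs without overlap between the stages, were TU74491, TU79670, TU70608 and TU198. They had changes of 2.63 to 2.75. TU78568 rose from 3.28, 2.61 and 3.27 to 11.1, 8.68 and 12.1, a rise of 1.51 ± 0.31 (limma adjusted p = 0.00221), and its mean at A180d was 63.1.

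**Figure D5:**
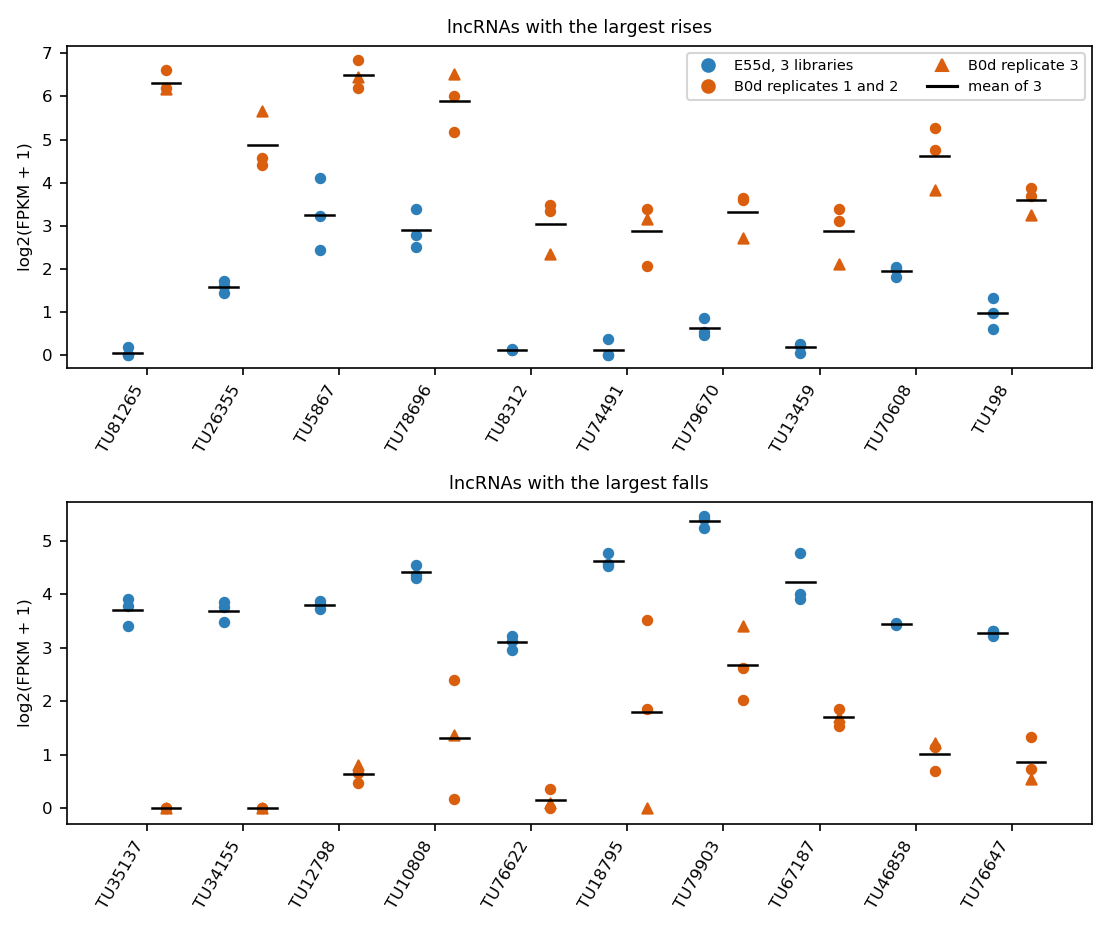
Levels of the 10 lncRNAs with the largest rises (top) and the 10 with the largest falls (bottom) in the 6 libraries (vertical, log2(FPKM + 1); horizontal, lncRNA). Both sets were taken from lncRNAs that passed without overlap between the stages. Blue points are the E55d libraries, orange circles B0d replicates 1 and 2, orange triangles B0d replicate 3, and bars the mean of 3. TU35137 and TU34155 are at 0 in all B0d libraries, and TU18795 spreads from 0.00241 to 10.4 FPKM at B0d.

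Among the 10 largest falls of lncRNAs, taken from those without overlap between the stages, 2 ended at 0. TU35137 had an FPKM of 12.7, 9.63 and 14.0 at E55d and TU34155 had 12.5, 10.1 and 13.4, and both were listed at 0 in all 3 newborn libraries. Their falls were 3.70 (SE 0.15) and 3.69 (SE 0.37) on the log2 scale. Their means in WB were 5.93 and 2.48, while they were at most 0.0534 in the older domestic groups. TU12798 went from 13.6, 12.2 and 13.1 to 0.569, 0.391 and 0.744, with limma's lowest adjusted p among these, 9.86e-12, and its mean was at most 0.0325 in each older group. TU79903 was the most abundant of the 10 in the fetus, at 43.0, 36.6 and 41.3, and had 3.06, 5.11 and 9.58 in the newborn. TU18795 was less even, at 22.1, 22.6 and 26.2 and then 2.62, 10.4 and 0.00241 (limma adjusted p = 0.046, 0.0909 to 0.109 without an E55d library or B0d replicate 1, and 0.209 without B0d replicate 3). The other 5, TU10808, TU76622, TU67187, TU46858 and TU76647, fell by 2.41 to 3.10.

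Detection in all libraries of a single stage was rare and mostly at low levels. Of the 15040 lncRNAs, 147 were listed at 0 in all 3 E55d libraries and above 0 in all 3 B0d libraries, and 114 showed the reverse. The median of their mean FPKM in the stage with signal was 0.346 and 0.394, and 20 and 16 of them had a mean above 1. Of the 147 newborn lncRNAs, 35 were above 0 in all 12 older libraries and 4 in none, while of the 114 fetal lncRNAs 2 were above 0 in all 12 and 18 in none. After TU35137 and TU34155, the highest fetal ones were TU78389, TU1518 and TU50309, with means of 3.43, 3.28 and 2.999. TU1518 was listed at 0 in every older library as well. Among the highest newborn ones, TU80878 had an FPKM of 1.92, 1.71 and 3.29, TU20570 had 2.88, 3.36 and 0.394, and TU40031 had 2.76, 1.35 and 1.15. TU83601 and TU54868 were uneven, with 0.00327, 2.58 and 17.9 for the former, which did not pass (adjusted p = 0.0893), and 0.182, 1.11 and 3.93 for the latter (adjusted p = 0.0287, 0.0698 to 0.0708 without an E55d library and 0.16 without B0d replicate 3). TU54868 also missed in the 6-library model (0.0728) and after a median ratio scaling of lncRNAs (0.136). Read counts per transcript were not used here, so a value of 0 sets no upper limit.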

How the data were processed

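The authors prepared strand-specific libraries (dUTP) from total RNA for paired-end sequencing and mapped the reads to a pig assembly in which the sex chromosomes came from a newer version. The submitters' processing notes name TopHat, Cufflinks 2.2.1, StringTie 1.3.3 and Sscrofa10.2. The authors deposited log2 values, log2(FPKM + 1), for protein-coding genes and lncRNAs, and an empty cell of the lncRNA table was read as FPKM 0. The design assumed FPKM, but the files hold these log2 values. The E55d columns carry numbers that the labels do not give, so they were used without replicate numbers and are listed in table order.

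Genes and lncRNAs exceeding an FPKM of 0.1 in 3 or more of the 18 libraries entered limma 3.58.1 in R 4.3.3, in a model of 6 groups with a mean-variance trend and Benjamini-Hochberg adjustment, and the fit was tested on simulated data. P-values measure the spread between these animals. The deposited tables hold no read totals. By the modal ratio between libraries of lncRNA levels under an FPKM of 0.3, the depth of the other 5 libraries was 0.789 to 1.12 times that of the first E55d library, an approximate value since 2.24% to 3.48% of lncRNAs shared the modal ratio. The most abundant protein-coding gene, ENSSSCG00000018700, took 36.9% to 49.8% of the summed FPKM of protein-coding genes in the 6 libraries and 0% to 53.6% in the other 12.

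The members and lists were chosen with earlier results of these data known. Named were the 10 largest rises and 10 largest falls without overlap, up to 4 members of each marker list by size of change, CP, and for lncRNAs also the 5 highest of each stage, the 5 highest detected in a single stage and TU78568. Other list members named, and the gene families added, were chosen after their values were seen. No sequences or coordinates are given, since no genome of the files' build was used here. The values of 1 member of the B cell list are not reported here.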

Additional observations from a re-analysis of the deposited data

How the results depend on the processing

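The files give no read counts, so counting error is unknown, and 3 animals per stage limit every test. Of 110 protein-coding genes that passed and were examined, 96 kept direction and call in every alternative that tested them, and of 28 lncRNAs, 25 did. The filter left out GATA2 and TLR9 at FPKM above 1, CP, TU20570, TU40031, TU54868 and TU80878 in the 6 libraries without B0d replicate 3, and TU1518 when an E55d library was left out. No named gene or lncRNA that passed changed direction. Calls were gained in some alternative by CXCR5, EPOR, GNLY, GZMA, KDR, MECOM, MEST, PRF1, SLC4A1, TF, TU18965, TU47080, TU69026 and TU83601. The call of TF was a fall, gained without B0d replicate 3. The calls lost in some alternative were those of ACTA2, CIITA, CPOX, CSF1R, CSF3R, DES, FECH, ITGAL, LMO2, MRC1, POLR1H, TEK, TLR10, TOP2A, TU18795, TU20570 and TU54868. No paired analysis was possible because the E55d columns carry no replicate numbers of the labels and each library came from a different animal. The stages were thus unpaired by design, and an equal replicate number would not mark the same animal. The model of 6 libraries without B0d replicate 3 was chosen after seeing the data. The cause of each change was not tested, except that models of fewer libraries test fewer samples and stricter filters fewer features.

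For protein-coding genes, rises numbered 1826 without the most abundant gene and falls 2444 with the median ratio scaling. Leaving out 1 library gave 1059 (without the first E55d library) to 1433 falls. For lncRNAs, the 6 libraries alone gave 1518 calls (685 rises, 833 falls), and without B0d replicate 3 they gave 1368 (625 rises, 743 falls). Rises numbered 601 with the median ratio of lncRNAs, and falls 937 with FPKM above 1 and 914 with a pseudocount of 0.1. Leaving out 1 library gave 641 (first E55d library) to 1441 rises (B0d replicate 2), with 701 without B0d replicate 1. The difference in lncRNAs detected was -45.3 above FPKM 1.

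Signs that turned belonged to genes that did not pass in the model of all 18 libraries. Without B0d replicate 3, also in the 6-library model, the difference was -0.54 for ALB, 0.30 for EPB42, 0.0022 for HBM, 0.023 for LTA, -0.52 for S100A8, -2.10 for TF and 0.060 for WT1. TF was at -0.43 with a pseudocount of 0.1 and at -0.016 without the most abundant gene. Over the left-out libraries ALB ranged to 3.92, EPB42 from -0.42, HBM from -0.60, LTA from -0.12, S100A8 to 0.95, TF to 1.29 and WT1 from -0.14. F5 ranged from -0.26 to 0.044, and HBB from -0.43 to 6.33.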

Other observations

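Further gene families were inspected after their values were seen, and their counts are a description. Of all genes, 34.9% were called, 22.3% as rises and 12.6% as falls. Of 24 interferon-induced, IRF and STAT genes, 13 rose and none fell (12 without B0d replicate 3). IRF1, a transcription factor induced by interferon, had an FPKM of 3.89, 3.84 and 3.62 at E55d and 16.2, 17.3 and 43.6 at B0d, and IRF5, a factor of Toll-like receptor signalling, rose by 1.82 ± 0.20 (limma adjusted p = 6.14e-06). Of 19 interleukin receptor genes, 8 rose and 1 fell. IL10RA, a chain of the receptor for interleukin 10, rose by 2.13 ± 0.22, and IL17RD fell by 1.58 (SE 0.15). Of 7 genes of DNA methylation and of the EZH histone methyltransferases, 4 fell and 1 rose. The DNA methyltransferases DNMT1 and DNMT3B fell by 0.76 (SE 0.18) and 1.07 (SE 0.15). EZH2 fell by 1.26 (SE 0.26) while its paralog EZH1 rose by 0.74 ± 0.15.

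Of 8 genes of the insulin-like growth factor axis, 3 rose and 2 fell (3 and 3 without B0d replicate 3). IGF2BP2, an RNA-binding protein, went from 10.5, 9.28 and 9.28 to 3.42, 2.75 and 2.75, and the growth factor IGF1 fell by 0.94 (SE 0.20). IGFBP7, a secreted binding protein, rose by 1.64 ± 0.23. Of 21 ribosomal protein genes, 5 (23.8%) rose and none fell, near the 22.3% of all genes that rose. Their median change was 0.15, close to the 0.13 of all genes. Of 16 heat shock protein genes, 3 (18.8%) rose and none fell, and without B0d replicate 3 there was 1 rise. HSPA5, a chaperone of the endoplasmic reticulum, was at 407 in that library, at 79.9 and 129 in the other newborn libraries and at 61.9 to 72.5 at E55d.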
